A study of Homo sapiens with 11 samples.

Results

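The zinc finger genes described here are the protein-coding genes of chromosome 19 whose GENCODE symbol is ZNF followed by digits only. The count tables held 232 such genes among 23167 genes, and they are called chromosome 19 ZNF genes below. They were set beside 229 genes with the same kind of symbol on other chromosomes, 1080 other protein-coding genes of chromosome 19 and all 18108 protein-coding genes of the tables. MDA-MB-231, an established human triple-negative breast cancer cell line, was studied as WT cells, which received the transfection reagent without siRNA, and as mH2A1.1 KD cells, which received siRNA against mH2A1.1 at 11 nM. Both were collected at day 3. A control with an unrelated siRNA was not analysed here, so effects of transfected siRNA as such and of the loss of mH2A1.1 cannot be told apart. RNA-seq gave 2 libraries per condition, and ChIP-seq of WT cells gave 1 peak list for mH2A1.1 and 1 for total mH2A1, each from 1 library with its own antibody.

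Most C2H2 zinc finger genes of chromosome 19 lie in tandem clusters that grew by duplication. Each finger is a short loop held by a zinc ion between a pair of cysteines and a pair of histidines, and an array of fingers reads DNA, often within transposable elements. Many of these proteins also carry a KRAB domain, which recruits TRIM28 and, through it, SETDB1 and HP1 proteins, and so places repressive histone methylation on the bound DNA. The 3′ exons of the ZNF genes themselves are known in many cell types to carry such heterochromatin marks while the genes are transcribed. MacroH2A1 is a histone variant with a large non-histone domain, and mH2A1.1 is the splice isoform whose domain binds ADP-ribose.

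The sequences matched the label. Every one of the 232 predicted proteins held at least 1 C2H2 finger, with a median of 12 and a highest number of 36. A KRAB motif was matched in 191 proteins and not in 41, which says only that these letters were not found there. Exon GC content had a median of 43.3% and ran from 33.9% to 70.8%, against a median of 48.2% over all protein-coding genes. The genes with a KRAB match had a median of 42.9% and those without one a median of 57.9%. The exons of 59 of the 232 genes share bases with another counted gene, so that counts of these genes are uncertain.

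The longest coding exon had a median GC content of 40.9%, and in 164 of the 232 genes it was lower than that of all exon bases. The first finger found in that exon is printed from GRCh38 for ZNF681, ZNF714 and ZNF28, which had low values in KD, and for the gene with the highest exon GC content of all, with the codons of the 2 cysteines and 2 histidines in capitals.
ZNF681 finger (chr19:23744890-23744952, minus strand): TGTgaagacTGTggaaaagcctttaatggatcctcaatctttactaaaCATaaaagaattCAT
ZNF714 finger (chr19:21117103-21117165, plus strand): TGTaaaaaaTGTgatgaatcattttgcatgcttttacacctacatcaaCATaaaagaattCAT
ZNF28 finger (chr19:52800966-52801028, minus strand): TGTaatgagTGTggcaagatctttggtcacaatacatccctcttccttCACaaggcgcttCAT
ZNF628 finger (chr19:55481305-55481367, plus strand): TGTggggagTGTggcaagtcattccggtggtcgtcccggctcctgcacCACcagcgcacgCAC
The stretch of ZNF714 holds 27.0% G and C and that of ZNF681 31.7%, against 44.4% in ZNF28 and 66.7% in ZNF628. Neither ZNF681 nor ZNF714 has a CpG in this stretch, whereas ZNF628 has 5.

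The promoters are rich in GC. RefSeq windows of 300 bases on GRCh38.p14 were matched for 203 of the 232 genes, with 254 windows in all since some genes have several starts. They had a median of 60.7% GC and 20 CpG, against 58.7% and 14 over all 35116 windows. The letters CCAAT, on either strand, were present in 48.0% of the windows and in 34.6% of all windows, GGGCGG in 65.7% and 45%, and TATAAA in 2.76% and 11.5%. Of the 4 promoters below, the first belongs to the gene with the lowest log2 fold change in KD. The next is from a stretch of genes with almost no counts, described further on. The others belong to genes under the widest mH2A1 and the widest mH2A1.1 peak. CpG is in capitals.
ZNF714 promoter (chr19:21081953-21082252, plus strand): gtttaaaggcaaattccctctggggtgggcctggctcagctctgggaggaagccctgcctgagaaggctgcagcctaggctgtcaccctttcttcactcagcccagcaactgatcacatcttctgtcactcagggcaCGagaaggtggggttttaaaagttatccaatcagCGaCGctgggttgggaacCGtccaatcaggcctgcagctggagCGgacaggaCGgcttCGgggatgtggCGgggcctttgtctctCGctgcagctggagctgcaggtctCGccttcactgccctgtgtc
ZNF208 promoter (chr19:22010894-22011193, minus strand): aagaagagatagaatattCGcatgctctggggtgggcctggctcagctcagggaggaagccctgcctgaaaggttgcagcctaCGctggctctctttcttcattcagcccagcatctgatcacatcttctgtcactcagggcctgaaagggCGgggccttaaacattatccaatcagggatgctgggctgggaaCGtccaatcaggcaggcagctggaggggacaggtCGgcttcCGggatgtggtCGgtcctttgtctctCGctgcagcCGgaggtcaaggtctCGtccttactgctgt
ZNF628 promoter (chr19:55476367-55476666, plus strand): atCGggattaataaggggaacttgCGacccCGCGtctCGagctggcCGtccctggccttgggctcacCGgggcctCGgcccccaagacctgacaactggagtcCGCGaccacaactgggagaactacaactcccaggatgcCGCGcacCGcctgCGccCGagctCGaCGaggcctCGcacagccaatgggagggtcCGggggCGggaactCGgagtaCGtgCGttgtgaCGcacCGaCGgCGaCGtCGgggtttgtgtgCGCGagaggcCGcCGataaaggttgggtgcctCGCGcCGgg
ZNF324 promoter (chr19:58466830-58467129, plus strand): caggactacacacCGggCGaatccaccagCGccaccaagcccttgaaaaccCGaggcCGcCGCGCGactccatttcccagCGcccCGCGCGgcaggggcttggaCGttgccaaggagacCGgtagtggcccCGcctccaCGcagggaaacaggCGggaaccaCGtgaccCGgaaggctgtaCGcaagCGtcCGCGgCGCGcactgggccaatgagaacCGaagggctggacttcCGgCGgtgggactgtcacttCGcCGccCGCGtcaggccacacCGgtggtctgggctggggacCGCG
The windows of ZNF714 and ZNF208 hold 10 CpG each, and those of ZNF628 and ZNF324 hold 36 and 35.

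The libraries held 9794674 and 7856892 counts in WT and 5584962 and 2309549 in KD. The ZNF genes took 0.472% and 0.449% of the counts in WT and 0.421% and 0.350% in KD. KD replicate 2, the shallowest library, had almost no counts on chromosomes 21, 22 and X, so genes of these chromosomes stayed out of the fit. Log2 CPM, counts scaled to a common library size with TMM factors, correlated at 0.994 across genes between the WT libraries and at 0.960 between the KD libraries. MACROH2A1, counted over all its isoforms, stood at 385 and 394 CPM in WT and at 274 and 300 CPM in KD. The groups did not overlap, and the log2 fold change was -0.44 ± 0.17 (SE) with an adjusted p of 0.205 in edgeR. VIM and CD44, mesenchymal markers of this cell line, had at least 10033 counts in each WT library, while the hormone receptor genes ESR1 and PGR were at 0 in all 4 libraries. ERBB2, listed with them as low in triple-negative cells, stood at 80.0 and 80.2 CPM in WT and 86.9 and 128 CPM in KD. Among genes of other cell types, CD3E and ALB had at most 1 count. PECAM1 had 29 and 26 counts in WT and 29 and 9 in KD. COL1A1, a fibroblast marker, stood at 9.68 and 8.68 CPM in WT and 18.3 and 33.1 CPM in KD. Among epithelial markers, KRT8, KRT18 and KRT19 had log2 fold changes of 1.08, 0.87 and 1.06, while EPCAM had 0.13 and CDH1, with at most 22 counts, -1.28. COL1A1, the 3 keratins and VIM, at 0.68, were called higher in DESeq2, with adjusted p-values of 0.011 for COL1A1, 0.00311 to 0.0376 for the keratins and 0.1 for VIM, just under the threshold. The part of these differences in the results below was not tested.

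ZNF genes were broadly detected, and those past the filter on low counts stood at low levels beside other such genes. The filter on low counts was passed by 193 of the 232 genes (83.2%), against 58.0% of all protein-coding genes and 56.2% of the other protein-coding genes of chromosome 19. Their median level in WT was 3.14 FPKM by exon length over the 193, while the median of tested protein-coding genes was 7.23 FPKM. Over all 232, tested or not, it was 2.61 FPKM. The like median was 2.09 FPKM over all protein-coding genes and 1.07 FPKM over the other genes of chromosome 19. The ZNF genes of other chromosomes were alike, with 81.2% past the filter and a median of 2.71 FPKM. In bulk RNA, fewer expressing cells and less RNA per cell cannot be told apart.

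ZNF146, which codes for an array of fingers without a KRAB domain, had the highest level, at 44.3 ± 2.70 FPKM (SD, n = 2). ZNF121 followed at 22.1 ± 2.44 FPKM and ZNF460 at 21.3 ± 0.255 FPKM, and these neighbours did not differ beyond their spread. ZNF841 stood at 14.2 ± 1.09 FPKM and ZNF91 at 12.6 ± 1.05 FPKM, and whether these levels differ was not tested. ZNF91, with 31 fingers, binds SVA retrotransposons, and its relative ZNF93, which binds LINE elements, had 7.82 ± 0.0477 FPKM. ZNF274, which brings SETDB1 to the 3′ exons of ZNF genes, stood at 8.17 ± 0.0446 FPKM. ZNF382, at 0.227 ± 0.0448 FPKM, had the lowest level among the 193 genes.

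The 39 genes below the filter had at most 21 counts in any library. Of these, 17 had no count in any library, which allows up to 0.306 and 0.382 CPM in the WT libraries and 0.537 and 1.30 CPM in the KD libraries. These 17 include ZNF536, known as a neuronal gene. ZNF541, a gene of male meiosis, had 1 and 0 counts in WT and 0 and 1 in KD. The longest unbroken run of such genes was 9 neighbours from ZNF208 to ZNF730, at chr19:21932958-23147221, in which no gene had more than 1 count in any library and 4 had none. The expressed genes ZNF714 and ZNF91 lie within the same cluster, on either side of this run. The reads had passed a mapping quality filter, and how well reads map to this stretch was not tested.

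The comparison of KD with WT asks which of these genes differ between cells given siRNA against mH2A1.1 and cells given no siRNA. With edgeR's quasi-likelihood test, 0 of the 193 ZNF genes passed an adjusted p under 0.1 with a fold change over 1.5, and neither did any of the 10963 genes tested (0%). The lowest adjusted p of a ZNF gene was 0.176. At an unadjusted p under 0.05, 19 ZNF genes were lower in KD (9.84%), against 11.4% of all genes tested, and 3 were higher (1.55%), against 11.8%. DESeq2 called 2 ZNF genes lower, ZNF28 and ZNF714, where 4.1% of all genes were called lower, and 0 higher, where 4.36% were. With GC and length offsets in edgeR, which remove a smooth trend of each library over exon GC content and length, ZNF28, ZNF583 and ZNF714 were called lower, beside 3.18% of all genes, and 0 ZNF genes higher, beside 2.16%. Single libraries weighed heavily: without KD replicate 2 edgeR called 8 ZNF genes lower and 3 higher, beside 5.31% and 2.74% of all genes, and without KD replicate 1 it called 56 lower and 19 higher, beside 21.4% and 20.4%. With the replicate number as a block it called 21 lower and 4 higher, beside 10.4% and 9.77%.

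ZNF714 (ENSG00000160352, chr19:21082159-21125270, plus strand), whose protein has 12 fingers, had the lowest log2 fold change of the 193 genes. Its level was 83.3 and 74.2 CPM in WT and 38.7 and 15.6 CPM in KD. The groups did not overlap, and the KD libraries also lay far apart. The log2 fold change was -1.46 ± 0.36 (SE), with an adjusted p of 0.194 in edgeR and 0.00413 in DESeq2. With the offsets it was -0.96 ± 0.18, with an adjusted p of 0.0396 in edgeR.

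ZNF28 (ENSG00000198538, chr19:52797408-52857600, minus strand), a KRAB gene with 15 fingers, had the smallest p of the 193. It stood at 33.7 and 32.6 CPM in WT and at 17.0 and 17.0 CPM in KD. Both KD libraries were therefore below both WT libraries by a similar amount. The log2 fold change was -0.96 ± 0.20 and -0.68 ± 0.16 with the offsets, with adjusted p-values of 0.176 and 0.0639 in edgeR and 0.0556 in DESeq2. Its exons share bases with 1 other counted gene.

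ZNF583 (ENSG00000198440, chr19:56397966-56436035, plus strand), another KRAB gene, stood at 13.1 and 13.7 CPM in WT and at 5.86 and 5.67 CPM in KD. Its KD libraries also lay together and below WT. The log2 fold change was -1.21 ± 0.25, and -0.81 ± 0.24 with the offsets, with adjusted p-values of 0.176 and 0.0987 in edgeR and none in DESeq2, which set it aside for low counts. It shares exon bases with 1 other counted gene as well.

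Other low values came from KRAB genes near ZNF714. ZNF681, with the lowest exon GC content of all, stood at 16.6 and 17.9 CPM in WT and at 9.26 and 7.56 CPM in KD. ZNF626 stood at 16.3 and 16 CPM in WT and at 10.2 and 1.89 CPM in KD, where replicate 2 held only 4 reads. In edgeR with all 4 libraries, the filter on low counts and no block, neither was called, with or without the offsets. DESeq2 gave no adjusted p for them. Both were called lower in edgeR with the replicate block and without either KD library. Their log2 fold changes moved from -1.0 and -1.17 to -0.36 and -0.60 with the offsets. ZNF486 and ZNF90 had log2 fold changes of -0.90 ± 0.29 and -0.75 ± 0.23, and ZNF765, from another cluster, had -0.59 ± 0.20. ZNF91 stood at 138 and 123 CPM in WT and at 103 and 58.1 CPM in KD, a log2 fold change of -0.67 ± 0.28 that came to -0.20 ± 0.12 with the offsets. With the replicate block, and with no filter on low counts, edgeR called ZNF486, ZNF90 and ZNF91 lower but not ZNF765.

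The highest values in KD belonged mostly to genes of high GC content. ZNF628 (ENSG00000197483, chr19:55476617-55484487, plus strand) stood at 12.8 and 14.5 CPM in WT and at 21.2 and 29.3 CPM in KD, without overlap. Its log2 fold change was 0.85 ± 0.25, with an adjusted p of 0.194 in edgeR and 0.104 in DESeq2, and 0.28 ± 0.17 with the offsets. ZNF71, a KRAB gene at 52.9% exon GC, had 0.80 ± 0.25 and kept 0.58 ± 0.19 with the offsets. ZNF580, ZNF579 and ZNF444 had log2 fold changes of 0.70, 0.67 and 0.65, which came to 0.20, 0.16 and 0.27 with the offsets. With all 4 libraries, the filter on low counts and no block, none of these 5 was called in edgeR, with or without the offsets. DESeq2 called none of them and gave no adjusted p for ZNF579. With the replicate block, and with no filter on low counts, edgeR called ZNF628, ZNF71, ZNF580 and ZNF444 higher. With both the block and the offsets it called ZNF71, at 0.60. The 5 log2 fold changes lay from 0.85 to 1.16 without KD replicate 1 and from 0.23 to 0.73 without KD replicate 2.

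**Figure D1:**
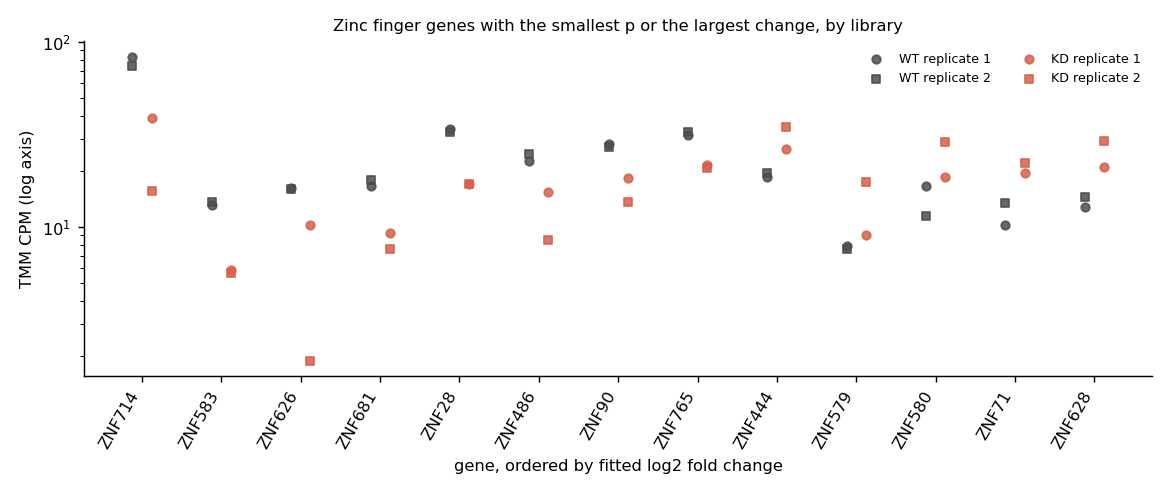
Normalised level (TMM CPM, log axis) of the ZNF genes with the smallest p or the largest change in KD, with 1 point per library, circles for replicate 1 and squares for replicate 2. ZNF28 and ZNF583 have KD points that nearly coincide, at 17.0 and 17.0 and at 5.86 and 5.67 CPM, whereas those of ZNF714 and ZNF626 lie apart.

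Of the other genes chosen for a known role, none was called in edgeR with all 4 libraries, while ZNF93 and ZNF146 were called lower and ZNF8 higher without KD replicate 1. ZNF274 stood at 68.7 and 68.5 CPM in WT and at 65.0 and 87.9 CPM in KD, so that the groups overlapped. ZNF331 had 38.1 and 38.7 CPM in WT and 35.5 and 38.8 CPM in KD, also with overlap. ZNF93, at 44.1 and 43.9 CPM in WT, had 44.2 CPM in KD replicate 1 and 26.0 CPM in KD replicate 2. ZNF808, a gene of pancreas development, had a log2 fold change of -0.20 ± 0.19, and ZNF816 had 0.02 ± 0.25. ZNF420, ZNF568, ZNF649, ZNF558, ZNF224, ZNF45, ZNF382 and ZNF8 lay between -0.42 and 0.45.

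Across all 193 genes the median log2 fold change was -0.19, beside 0.01 over all genes tested. It was -0.07 in KD replicate 1 and -0.36 in KD replicate 2, each against the mean of WT, and -0.03 with the offsets. Both KD libraries lay below both WT libraries in 77 ZNF genes (39.9%), against 32.4% of all genes tested, and above them in 37 (19.2%), against 32.5%. ZNF genes of other chromosomes had a median of -0.08 and the other tested genes of chromosome 19 a median of 0.48, of which 0.06 was left with the offsets.

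The change in KD was graded by exon GC content in ZNF genes as it was in other genes. All 25 ZNF genes under 40% GC had a log2 fold change below 0, with a median of -0.65, beside -0.48 in 1930 other genes of that band. From 40% to 45% the medians were -0.21 in 106 ZNF genes and -0.22 in 2551 others. From 45% to 55% they were 0.07 in 44 and 0.13 in 3501, and at 55% or more 0.46 in 18 and 0.44 in 2768. In the lowest band the median of the ZNF genes was -0.34 in KD replicate 1 and -1.13 in KD replicate 2, and in the highest 0.15 and 0.88, so both libraries leaned the same way and replicate 2 more. With the offsets the 4 medians lay between -0.11 and 0.01. Whether this gradient came from the knockdown or from the libraries cannot be told apart with 2 libraries a group.

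**Figure D2:**
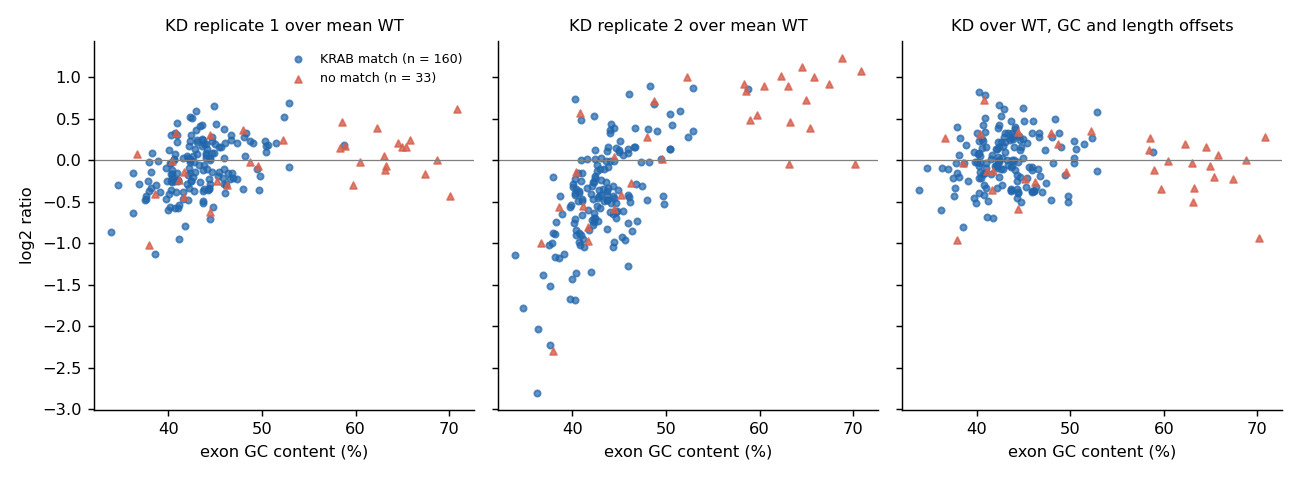
Log2 ratio of KD to WT against exon GC content (%) for the 193 tested ZNF genes, for each KD library over the mean of WT and for the fit with GC and length offsets, with circles for genes with a KRAB match and triangles for the others. The slope is steeper in KD replicate 2, where the genes under 40% GC have a median of -1.13, and is not seen with the offsets, where all 193 have a median of -0.03.

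The clusters of the chromosome were compared next. Joining neighbours whose starts lie within 500 kb placed 220 of the 232 genes in 10 clusters of at least 5 genes. The cluster from ZNF101 to ZNF254 (chr19:19668796-24129968) holds 30 genes, 21 of them tested, with a median exon GC content of 38.2%. Its median log2 fold change was -0.70, with a range from -1.46 to 0.12, and KD lay below WT in 17 of the 21 genes and above in none. Over all genes tested, KD lay below WT in 32.4% and above in 32.5%. Among 1930 other tested genes under 40% GC, KD lay below WT in 1393 and above in 59. The median of the cluster was -0.37 in KD replicate 1 and -1.16 in KD replicate 2, and -0.39 without KD replicate 2. With the offsets it was -0.22, the lowest of the 10 clusters.

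The cluster from ZNF628 to ZNF835 (chr19:55476617-56671783) had the highest median with all 4 libraries. It holds 15 genes with a median exon GC content of 58.6%, and its 11 tested genes had a median of 0.63, with KD above WT in 7 and below in 1, which was ZNF583. With the offsets the median was 0.06 and without KD replicate 2 it was 0.23, and the cluster from ZNF554 to ZNF77 was higher without WT replicate 1 (0.52 against 0.47) and with thinned libraries (0.69 against 0.49). The cluster from ZNF175 to ZNF331 (39 genes, 36 tested) had a median of -0.26 with KD below WT in 18 and above in none, and -0.05 with the offsets. The largest, from ZNF264 to ZNF446 (41 genes, 37 tested), had 0.07, with KD below in 14 and above in 13. The small cluster from ZNF554 to ZNF77 had 0.38 over 4 tested genes, and 0.43 with the offsets. The medians of the other 5 clusters lay between -0.24 and 0.16. For the counts above, the shares over all genes tested were 32.4% with KD below WT and 32.5% with KD above. Among 2768 other tested genes at 55% GC or more, KD lay above WT in 1681 and below in 116.

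**Figure D3:**
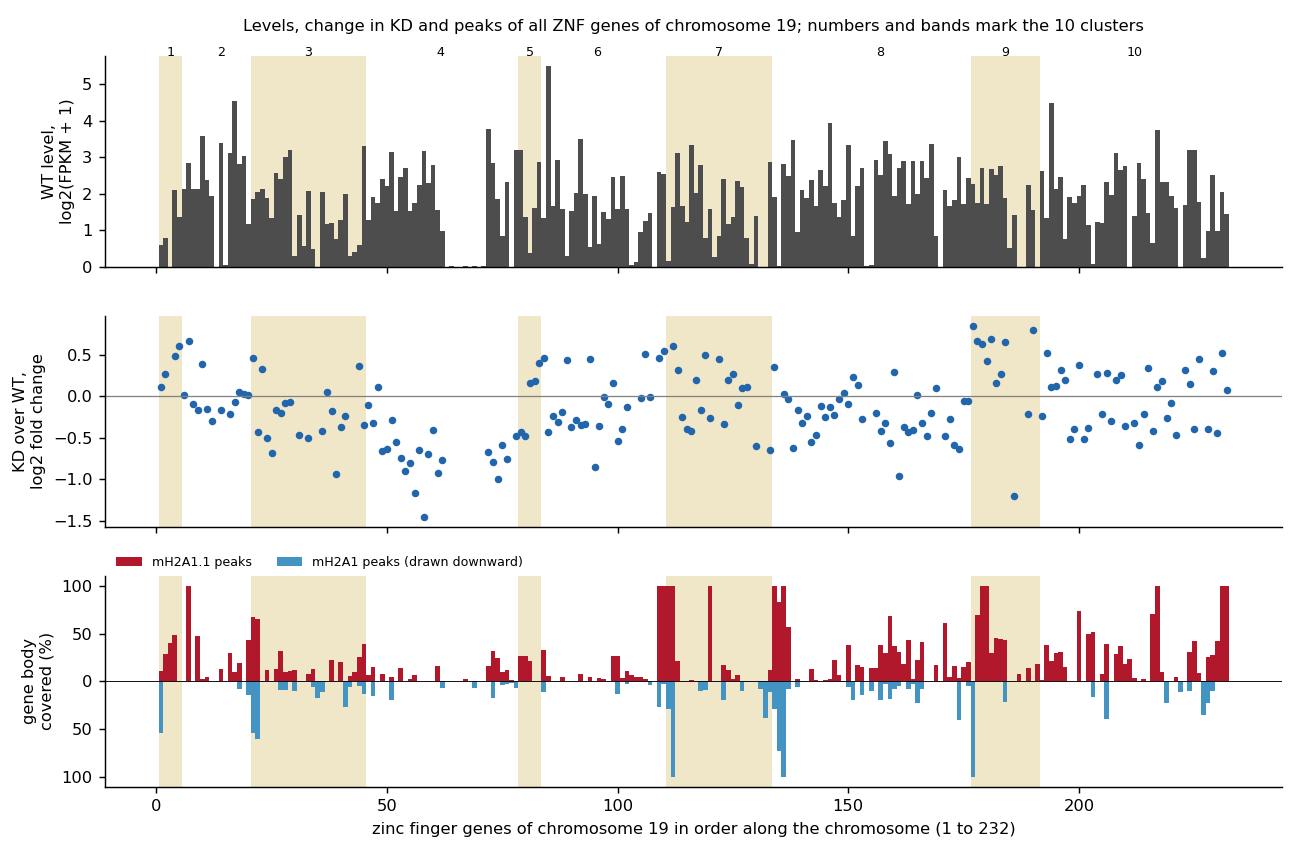
The 232 ZNF genes in order along chromosome 19, with the WT level as log2(FPKM + 1), the fitted log2 fold change of KD over WT, and the share of the gene body (%) under mH2A1.1 peaks (up) and mH2A1 peaks (down). Alternate bands and numbers mark the 10 clusters. The gap in cluster 4 is the run of 9 genes with at most 1 count in any library. This cluster has the lowest median fold change, -0.70 on the log2 scale.

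The peak lists ask where mH2A1.1 and total mH2A1 lie on these genes. An mH2A1.1 peak touched the TSS, with 500 bp on each side, in 97 of the 232 ZNF genes, or 41.8% (95% Clopper-Pearson interval 35.4% to 48.4%). This was close to the 40.5% of all protein-coding genes and below the 71.0% (68.2% to 73.7%) of the other genes of chromosome 19. A peak of total mH2A1 touched the TSS in 23 genes, or 9.91% (6.39% to 14.5%), against 22.3% of all protein-coding genes and 48.7% (45.7% to 51.7%) of the other genes of chromosome 19. The intervals cover counting error only, since each antibody has 1 library, and neighbouring genes can share a peak. ZNF genes of other chromosomes had 36.2% and 13.5%.

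Fewer 3′ ends than starts met an mH2A1.1 peak, while for mH2A1 the intervals of both overlap. An mH2A1.1 peak touched the gene end, with 500 bp on each side, in 44 genes (19%, interval 14.1% to 24.6%), and an mH2A1 peak in 19 (8.19%, 5.0% to 12.5%). The shares were 26.5% and 17.3% over all protein-coding genes and 58.7% and 42.5% over the other genes of chromosome 19. The longest coding exon, which holds the fingers, met an mH2A1.1 peak in 32 genes (13.8%) and an mH2A1 peak in 12 (5.17%). Over the gene body, from 50 bp after the TSS to the gene end, mH2A1.1 peaks covered a mean of 18.0%, against 24.3% and 57.0% in the same comparison groups, and mH2A1 peaks covered 5.92%, against 15.9% and 40.5%. The difference from all protein-coding genes did not hold on other scales for mH2A1.1: the median was 6.52% against 6.45%, and 13.3% against 11.4% of the bases were covered when bodies were pooled. No cover at all by mH2A1.1 peaks was found in 84 gene bodies (36.2%, against 34.8% of all protein-coding genes) and by mH2A1 peaks in 161 (69.4%, against 54.9%). The median exon GC content was 43.3% in the ZNF genes and 59.3% in the other genes of chromosome 19. Among tested genes at 55% GC or more, mH2A1.1 gene-end shares were 61.1% of 18 ZNF genes and 64.7% of 502 others of that chromosome. Mean body cover was 63.7% and 61.2% for mH2A1.1, and 14.2% and 29.6% for mH2A1. From 45% to 55% GC mean mH2A1.1 cover was 27.6% in 44 and 48.6% in 92. The part of GC content in these gaps was not tested.

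**Figure D4:**
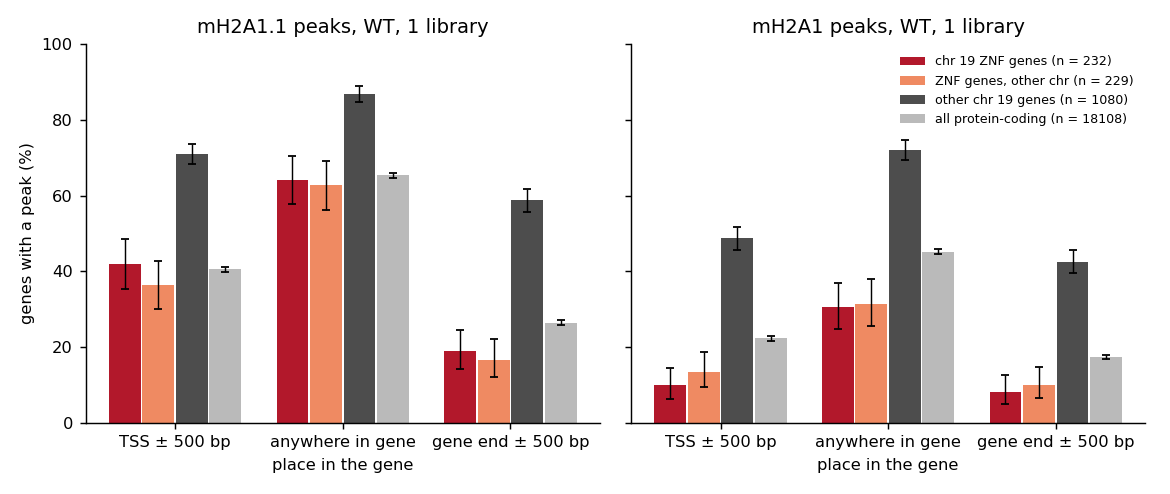
Share of genes (%) with an mH2A1.1 peak (left) or an mH2A1 peak (right) at the TSS, anywhere in the gene and at the gene end, for 4 groups of genes, with 95% Clopper-Pearson intervals as bars. The ZNF genes of chromosome 19 lie near the ZNF genes of other chromosomes and below the other genes of chromosome 19 at each place, for example 41.8% against 71.0% at the TSS for mH2A1.1.

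Peaks on ZNF genes were mostly narrow. The peaks were called in bins of 3000 bp, and 171 mH2A1.1 peaks touched a ZNF gene, of which 87 (50.9%) were a single bin, against 41.5% over chromosome 19. Of 86 mH2A1 peaks, 62 (72.1%) were a single bin, against 47.3%. Both kinds of peak lay at the TSS in 14 ZNF genes, 60.9% of the 23 with an mH2A1 peak there, against 71.7% over all protein-coding genes, among them ZNF358, ZNF574, ZNF576, ZNF296, ZNF114 and ZNF473. Common mH2A1.1 peaks, those that share at least 1 bp with an mH2A1 peak anywhere along their length, touched the TSS in 34 genes (14.7%) and the end in 24 (10.3%), against 25.3% and 19.9% of all protein-coding genes and 61.9% and 52.4% of the other genes of chromosome 19.

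Genes with a KRAB match and the others differed in cover. A mean of 13.9% of the gene body lay under mH2A1.1 peaks in the 191 genes with a match, and 37.2% in the 41 others, with 4.42% and 12.9% for mH2A1. Pooled over bases the gap was smaller, 12.4% against 17.1% for mH2A1.1 and 4.47% against 7.39% for mH2A1. The median exon GC content of these groups was 42.9% and 57.9%, and its part in the difference was not tested. An mH2A1.1 peak met the longest coding exon in 8.38% (interval 4.86% to 13.2%) and 39.0% (24.2% to 55.5%). At the TSS the shares were 39.8% and 51.2%, with intervals that overlap.

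The TSS share of mH2A1.1 was higher in each higher band of exon GC content, in ZNF genes and in genes of other chromosomes. That of mH2A1 in ZNF genes was lowest in the 40% to 45% band, on few genes and with intervals that overlap. Among tested genes from 40% to 45% GC, which hold most ZNF genes, 49 of 106 had an mH2A1.1 peak at the TSS (46.2%, interval 36.5% to 56.2%), beside 31.7% (29.9% to 33.6%) of 2419 genes of other chromosomes and 1 of 10 other genes of chromosome 19. Under 40% GC the shares were 24% of 25 ZNF genes and 26.4% of 1885 genes of other chromosomes. For mH2A1 under 40% GC, 3 of 25 ZNF genes had a peak (12%, interval 2.55% to 31.2%), beside 4.77% on other chromosomes. From 40% to 45% GC, 6 of 106 had one (5.66%, 2.11% to 11.9%), beside 8.60%. The shares were 13.6% of 44 and 19.1% from 45% to 55% GC. In the highest band they were 27.8% of 18 (9.69% to 53.5%) and 35.5%. At 55% GC or more, 11 of 18 ZNF genes had an mH2A1.1 peak (61.1%), beside 71.0% of 2191 on other chromosomes and 80.3% of 502 other genes of chromosome 19. At the gene end the ZNF genes of the 40% to 45% band had 11.3% for mH2A1.1, beside 8.56% on other chromosomes.

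**Figure D5:**
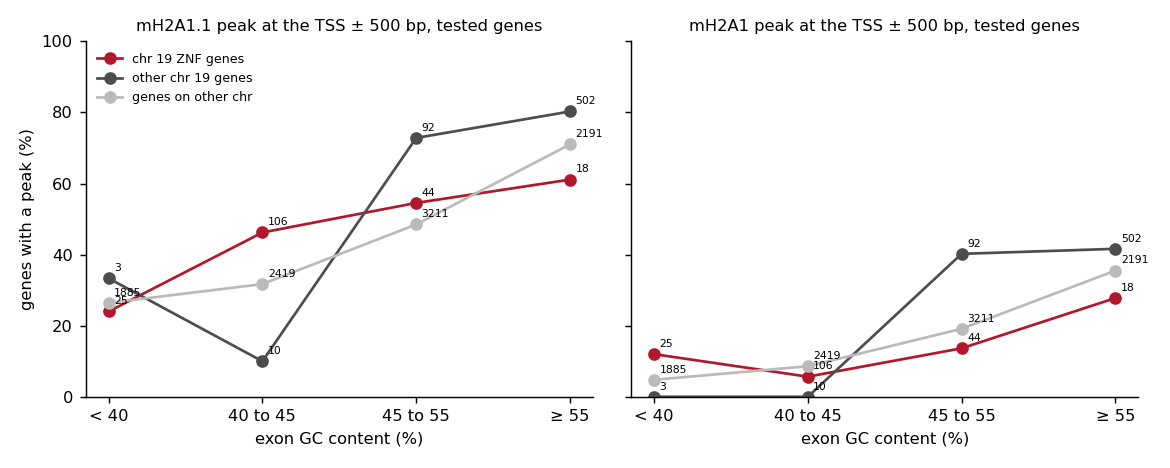
Share of tested genes (%) with an mH2A1.1 peak (left) or an mH2A1 peak (right) at the TSS in 4 bands of exon GC content, with the number of genes at each point. From 40% to 45% GC the ZNF genes stand at 46.2% for mH2A1.1, above genes of other chromosomes at 31.7%, and at 5.66% for mH2A1, beside 8.60%. The point of the other chromosome 19 genes in that band rests on 10 genes.

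As in protein-coding genes at large, more ZNF genes past the filter on low counts than below it had mH2A1.1 at the start. An mH2A1.1 peak lay at the TSS in 90 of the 193 tested genes (46.6%, interval 39.4% to 53.9%) and in 7 of the 39 others (17.9%, 7.54% to 33.5%), and these intervals do not overlap. Over all protein-coding genes the shares were 47.0% of those tested and 31.5% of the rest. For mH2A1 the shares were 20 of 193 (10.4%) and 3 of 39 (7.69%, 1.62% to 20.9%). The genes below the filter with an mH2A1.1 peak at the TSS were ZNF763, ZNF564, ZNF536, ZNF575, ZNF541, ZNF835 and ZNF773. The 9 genes from ZNF208 to ZNF730 had none, and peaks covered a mean of 0.236% of their bodies for mH2A1.1 and 0.731% for mH2A1. Whether reads map less well there was not tested.

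A few ZNF genes lay in broad domains. The widest mH2A1.1 peak on a ZNF gene, 123000 bp at chr19:58437001-58560000, covered the bodies of ZNF324 and ZNF446 in full and 42.6% of that of ZNF132. ZNF324 stood at 18.4 and 17.5 CPM in WT and at 20.4 and 33.1 CPM in KD, without overlap, but its log2 fold change of 0.52 came to 0.10 with the offsets. ZNF446, a neighbour whose exons overlap those of other genes, had 9.15 and 7.36 CPM in WT and 6.61 and 12.3 CPM in KD, and ZNF132 had at most 30 counts. In all, 13 gene bodies were fully covered by mH2A1.1 peaks, beside 1950 of the 18108 protein-coding genes and 372 of the 1080 other genes of chromosome 19, among them ZNF358, ZNF574, ZNF526, ZNF587 and ZNF114.

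ZNF628 showed the opposite arrangement. The widest mH2A1 peak on a ZNF gene, 99000 bp at chr19:55473001-55572000, covered its body in full, and no mH2A1.1 peak touched it. Full cover by mH2A1 peaks was otherwise found in ZNF576 and ZNF114, both also fully under mH2A1.1 peaks. ZNF541, close to silent, had 82.8% of its body under mH2A1.1 peaks and 73.1% under mH2A1 peaks.

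Peaks and the change in KD were then set side by side. The 90 tested genes with an mH2A1.1 peak at the TSS had a median log2 fold change of -0.12, and the 103 without had -0.26, which came to -0.02 and -0.03 with the offsets. KD lay below WT in 35 of the 90 and in 42 of the 103, and above WT in 20 and 17. Over all genes tested the shares were 32.4% below and 32.5% above. Genes with an mH2A1.1 peak on the longest coding exon had a median of 0.36 over 29 genes, against -0.24 over 164, but their exon GC content was 52.9% against 42.6%, and the medians were 0.00 and -0.03 with the offsets. Of the 3 genes called lower with the offsets, ZNF28 had an mH2A1.1 peak at the TSS and 30.8% of its body under such peaks, while no peak of either list touched ZNF714 or ZNF583.

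The machinery that KRAB proteins recruit was listed as 25 genes, of which 23 were in the tables and 20 were tested. None passed the edgeR call, and 3 of the 20 were lower and 0 higher at an unadjusted p under 0.05, where 11.4% and 11.8% of all genes were. The 3 were CBX3, CBX5 and TASOR, which code for a pair of HP1 proteins and a subunit of the HUSH silencing complex, with log2 fold changes of -0.55, -0.65 and -0.59, and -0.40, -0.38 and -0.12 with the offsets. TRIM28, the corepressor of KRAB proteins, had 0.60 ± 0.27, and 0.09 with the offsets, and SETDB1, the methyltransferase, had 0.18 ± 0.18. The median over the list was -0.04, and 0.00 with the offsets. The 23 zinc finger genes of chromosome 19 with other kinds of symbol, such as ZFP28 and ZSCAN18, had 12 tested genes and a median of -0.07. None was called in edgeR without the offsets or in DESeq2. With the offsets edgeR called ZFP36 lower, at -0.82 with an adjusted p of 0.0206, beside 3.18% of all genes.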

How the data were processed

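RNA-seq counts of 2 WT and 2 mH2A1.1 KD libraries and the mH2A1.1 and mH2A1 peak lists of WT cells were used. The deposited counts are reads per gene, which the authors made with STAR 2.5.1 on GRCh38, a mapping quality filter, removal of duplicates and htseq-count at its default settings, which count 1 strand. The library kit marks strand, and whether both match was not tested. The annotation of the counting is not given in the sources used here. The other deposited values, peak positions, come from the authors' normR calls against input. All peak scores are 0. The ChIP-seq input and the promoter capture Hi-C samples are not analysed here.

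Gene positions, exon lengths and GC content came from GENCODE 44 (GRCh38). Of 23167 identifiers 23061 were matched. The test for KD against WT was that of edgeR 4.0.16, run in R 4.3.3 (TMM, filterByExpr, quasi-likelihood test, Benjamini-Hochberg over 10963 genes), without genes of chromosomes 21, 22 and X. SE came from the F statistic. DESeq2 1.42.0, other filters and normalizations, offsets over GC content and length (lowess span 0.3), a replicate block, thinning, each library left out, and other peak windows were alternatives. The code was tested on simulated data. FPKM used summed exon length and protein-coding counts. Ratios of single KD libraries to WT used a pseudocount of 0.5 CPM. KRAB matches were letter patterns in translated GENCODE 44 coding sequences. Intervals came from scipy 1.17.1 in Python 3.11.15. An exact permutation test of 2 against 2 libraries cannot go below 0.333, so none is given. Nothing says that replicates were separate cultures, so p-values measure the spread between these libraries, which may be technical.

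Named genes were the 10 with the smallest p, the 5 with the highest FPKM, the 5 largest non-overlapping changes per direction with at least 50 counts on average, genes fixed for a known role, cluster ends and genes under the widest peaks. Others were named after their values were seen, and so were the GC bands chosen. The members and lists were chosen with earlier results of these data known.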

Additional observations from a re-analysis of the deposited data

How the results depend on the processing

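The count of ZNF genes called in KD was 0 in both directions with edgeR and stayed so with the genes of chromosomes 21, 22 and X, with RLE size factors, with libraries thinned to the smallest and with no fold threshold. DESeq2 called 2 lower. With no filter on low counts 19 were lower and 4 higher. With GC and length offsets 3 were lower, and with the replicate block and those offsets 3 were lower and 2 higher. Leaving out 1 library gave 0 to 56 lower and 0 to 19 higher: without KD replicate 1, 56 and 19 (21.4% and 20.4% of all genes), and without KD replicate 2, 8 and 3 (5.31% and 2.74%), and 0 without either WT library. A lone library is then assumed to vary like the others. The replicate numbers are shared by WT and KD in the labels without a stated meaning, and deviations of same-numbered libraries correlated at 0.22. With the replicate block 21 ZNF genes were lower and 4 higher, beside 10.4% and 9.77% of all genes. ZNF28, ZNF583 and ZNF714 were lower without KD replicate 1 and without KD replicate 2, and their direction held in all settings. The median log2 fold change ranged from -0.39 without KD replicate 1 to -0.06 without KD replicate 2, was -0.03 with the offsets, and moved less than the spread between the KD libraries elsewhere.

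The median WT level was 0.598 FPKM by gene length. The mH2A1.1 share at the TSS was 49.6% for any transcript start, 32.3% with the whole window inside the peak, 24.1% with peaks of at least 6000 bp and 14.7% with common peaks. That at the 3′ end was 13.8% with peaks of at least 6000 bp and 10.3% with common peaks. The mH2A1 share at the TSS was 16.8% for any transcript start and 4.31% with peaks of at least 6000 bp, and that at the 3′ end 3.88% with such peaks. Mean mH2A1.1 body cover was 13.3% with bases pooled over genes and 10.0% with common peaks. Under each window and width tried, the shares over all 232 genes stayed below those of the other genes of chromosome 19. These shares were not matched for GC content. From 40% to 45% exon GC, 52 of 129 ZNF genes had an mH2A1.1 peak at the TSS (40.3%), beside 3 of 32 other genes of chromosome 19. At 55% GC or more the shares were 60.9% of 23 and 77.6% of 830. For mH2A1 the shares in these bands were 6.20% and 12.5%, and 21.7% and 52.8%. Genes with few counts in KD replicate 2 limit what a difference can show.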
